A study of Homo sapiens with 26 samples.

Results

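Neuronal differentiation and the synaptic vesicle machinery were followed through 38 genes, taken by symbol from the 26485 genes of each deposited count table. They encode microtubule and growth cone proteins, neuronal RNA-binding proteins, vesicle proteins, the release machinery, adhesion proteins of the synapse and neuronal enzymes. The choice rested on gene function and on no threshold of measured values, but it was made with earlier results of these data known. All 38 genes had a row in both tables, and 37 passed the filter on low counts in both. The exception was RBFOX3, which encodes the nuclear antigen NeuN of mature neurons. RBFOX3 had 0 to 5 counts in each cell culture library, 1 or 2 in each xenograft library labelled control, and 12, 13, 4 and 11 in those labelled KO, so it entered no test.

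The material was KELLY, a line grown from a human neuroblastoma, which is a childhood tumor of the sympathetic nervous system, and in which the MYCN gene is amplified. In culture every line carried a lentiviral vector under doxycycline control, with GFP as a tag per the methods of the study. The vector was empty in the EV line and encoded a hairpin RNA directed at RUNX1T1 in the lines named sh4 and shAMB. Each line received DMSO or doxycycline for 72 h, with 3 replicate libraries in each of these 6 groups. Whether the lines are pools or clones, and whether replicates are separate cultures, is not given in the sources used here, so p-values measure the spread between these libraries, which may be technical. The cell culture columns are headed Neg and Pos, which were read as DMSO and doxycycline from the words alone, and every direction given for cell culture rests on that reading.

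The 8 xenograft libraries, called PDX in the labels, came from KELLY tumors. The labels give 4 as genotype WT on control food and 4 as genotype RUNX1T1 KO on doxycycline food. Label and food coincide, and no xenograft library is labelled as empty vector. An effect of doxycycline itself therefore cannot be told apart from that of the KO label there, and the EV line covers the drug in culture only. Per the methods of the study, cells with a hairpin vector were grown under the skin of female NOD SCID gamma mice, which lack T, B and NK cells but keep a mouse stroma. The labels name neither the hairpin nor the age of the mice. The study gives the age at engraftment, and names for its KELLY xenografts the hairpin based on an Ambion siRNA sequence. That this is the hairpin of the shAMB line is read from the name alone. Whether mouse reads were set apart is not given in the sources used here. Total expected counts per library were 35115915 to 54736733 in culture and 47346063 to 62378060 in the xenografts. Markers of sympathetic neuroblasts were present in every library. HAND2, a transcription factor of these cells, had 232 to 426 CPM (read counts divided by library size after TMM scaling) in culture and 177 to 275 in the xenografts, whose table was normalized separately. DBH, the enzyme that makes noradrenaline, had 126 to 489.8 CPM in culture and 143 to 646 in the xenografts.

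The targeted gene was not called in any line or in the xenografts. RUNX1T1 had 33.3 to 35 CPM with DMSO and 30.1 to 33.9 with doxycycline in sh4. The corresponding ranges were 39.9 to 42 and 41.3 to 44.1 in shAMB, and 39.3 to 44.1 and 36.5 to 38.6 in EV. Xenografts labelled control had 30 to 43.1 CPM and those labelled KO 24.3 to 35.2. The log2 differences of these 4 contrasts were -0.11, 0.056, -0.16 and -0.23. With DMSO the sh4 line was already below EV (-0.29, adjusted p = 0.0144), and the effect in shAMB was above that in EV (0.21, adjusted p = 0.0353). Groups are named by their labels, and no direction below stands for a measured loss of RUNX1T1 RNA. All these values are RNA, and the protein was not measured in these libraries. The study itself reports lower RUNX1T1 levels with doxycycline in KELLY cells with either of its hairpins. It also reports loss of RUNX1T1 by immunostaining, which detects protein, in KELLY xenografts. The RNA values here therefore do not show whether the protein was lost.

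Neurons that leave the cell cycle build a stable microtubule skeleton and extend neurites tipped by a growth cone. At the axon terminal, vesicles filled with transmitter dock at the membrane, and a complex of the SNARE proteins SNAP25, syntaxin and VAMP pulls both membranes together. Synaptotagmins sense calcium and trigger this fusion, and complexins hold the complex ready. Sympathetic neuroblasts and neuroblastoma cells express many of these genes while they still divide. The repressor REST silences many of them outside the nervous system by binding the RE1 element, and basic helix-loop-helix factors bind the shorter E-box.

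The promoter windows of 4 genes that moved in 1 direction in all 3 comparisons with a hairpin or KO label are printed first, followed by SYN1, the only one of these genes with an RE1 match. Each window covers 250 bases before to 50 bases after the RefSeq gene start (GRCh38.p14), 5′ to 3′ on the strand of the gene. Capitals mark matches on either strand to the core of RE1 or to any of 3 E-boxes. The first is CACGTG, a palindrome that MYC proteins bind. The second is CATCTG, which neurogenic factors bind. The last is the palindrome CAGCTG. The window the table gives for SV2A lies inside the gene, not at its 5′ end, and is not shown.
SYT4, chr18:43277441-43277740, minus strand: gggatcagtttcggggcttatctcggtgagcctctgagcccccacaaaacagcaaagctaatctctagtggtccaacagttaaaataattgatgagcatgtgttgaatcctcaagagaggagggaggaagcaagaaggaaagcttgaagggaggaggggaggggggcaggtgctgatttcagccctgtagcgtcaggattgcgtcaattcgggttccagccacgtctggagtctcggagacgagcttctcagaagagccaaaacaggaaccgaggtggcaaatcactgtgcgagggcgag
SYT11, chr1:155859317-155859616, plus strand: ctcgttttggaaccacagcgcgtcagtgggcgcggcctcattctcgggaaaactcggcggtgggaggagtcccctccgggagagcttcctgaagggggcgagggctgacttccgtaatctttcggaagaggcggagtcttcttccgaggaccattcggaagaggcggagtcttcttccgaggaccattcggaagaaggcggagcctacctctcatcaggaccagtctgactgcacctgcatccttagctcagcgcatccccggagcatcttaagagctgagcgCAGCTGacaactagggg
UCHL1, chr4:41256678-41256977, plus strand: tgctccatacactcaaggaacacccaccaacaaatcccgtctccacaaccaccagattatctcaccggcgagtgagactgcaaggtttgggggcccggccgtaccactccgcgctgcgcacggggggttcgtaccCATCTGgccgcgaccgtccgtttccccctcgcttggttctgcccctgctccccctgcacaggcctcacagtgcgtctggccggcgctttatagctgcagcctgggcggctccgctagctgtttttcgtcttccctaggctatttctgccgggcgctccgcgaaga
BEX1, chrX:103064122-103064421, minus strand: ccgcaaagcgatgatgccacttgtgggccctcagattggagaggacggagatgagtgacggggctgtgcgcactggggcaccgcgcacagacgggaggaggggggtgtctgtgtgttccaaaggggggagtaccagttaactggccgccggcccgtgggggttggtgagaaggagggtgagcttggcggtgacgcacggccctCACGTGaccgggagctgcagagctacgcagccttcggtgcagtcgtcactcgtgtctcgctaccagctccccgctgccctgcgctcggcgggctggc
SYN1, chrX:47619808-47620107, minus strand: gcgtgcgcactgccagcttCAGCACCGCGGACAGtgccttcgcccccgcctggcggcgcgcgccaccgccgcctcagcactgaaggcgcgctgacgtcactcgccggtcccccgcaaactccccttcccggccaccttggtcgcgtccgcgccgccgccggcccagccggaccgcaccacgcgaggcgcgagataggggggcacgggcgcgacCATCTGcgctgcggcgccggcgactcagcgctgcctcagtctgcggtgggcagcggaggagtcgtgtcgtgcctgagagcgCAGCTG

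The RefSeq table held 68 windows for 31 of the 38 genes, since a gene can have several starts. The RE1 core occurred in 1 of these 68 windows (1.47%) and in 0.057% of all 35116 windows, and the match in SYN1 begins at base 20 of its window. CACGTG occurred in 4 windows (5.88%, against 7.26% of all windows), those of BEX1, CRMP1, ELAVL4 and RBFOX3. CATCTG occurred in 14 (20.6% against 14.7%) and CAGCTG in 11 (16.2% against 17.9%). The SYT4 window held none of the 4 motifs. SYN1, the gene with the RE1 match, did not pass the test in any comparison, with log2 fold changes of -0.16, 0.13 and 0.16 in sh4, shAMB and the xenografts. With GC content and length trends removed, SYN1 turned to -0.65 in shAMB and was called lower (adjusted p = 0.000459). These matches are a description of the letters in the windows.

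Doxycycline in the EV line, the background of the drug itself, changed none of the 37 genes tested with edgeR. At an unadjusted p under 0.05 there were 7, DESeq2 and limma on log2(TPM + 1) also called 0, and 0.0939% of all genes were called. A gene is called changed here when its Benjamini-Hochberg adjusted p, over all genes tested, was under 0.05. In sh4, 21 of 37 genes changed, 4 higher and 17 lower (56.8% of those tested, where 40.9% of all genes were called). Higher calls made up 10.8% of the genes, against 22.9% of all genes, and lower calls 45.9% against 18%. In shAMB 27 changed, 20 higher and 7 lower (73% against 66%). There higher calls were 54.1% against 37.6%, and lower calls 18.9% against 28.4%. In xenografts labelled KO 22 changed, 16 higher and 6 lower (59.5% against 41.1%). Higher calls were 43.2% against 21.2% and lower calls 16.2% against 19.9%. The libraries of the compared groups did not overlap for 4 genes above and 4 below in EV (14.1% of all genes), 4 above and 14 below in sh4 (41.3%), 20 and 8 in shAMB (73.4%) and 14 and 6 in the xenografts (36.7%). A call with at least a 2-fold change was made for 1 gene in sh4, 8 in shAMB and 7 in KO tumors, beside 5.03%, 17.9% and 12.5% of all genes. The median log2 fold change of the 37 genes was -0.24 for sh4, 0.42 for shAMB and 0.23 for the xenografts, beside -0.0046, 0.096 and 0.019 over all genes tested.

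**Figure D1:**
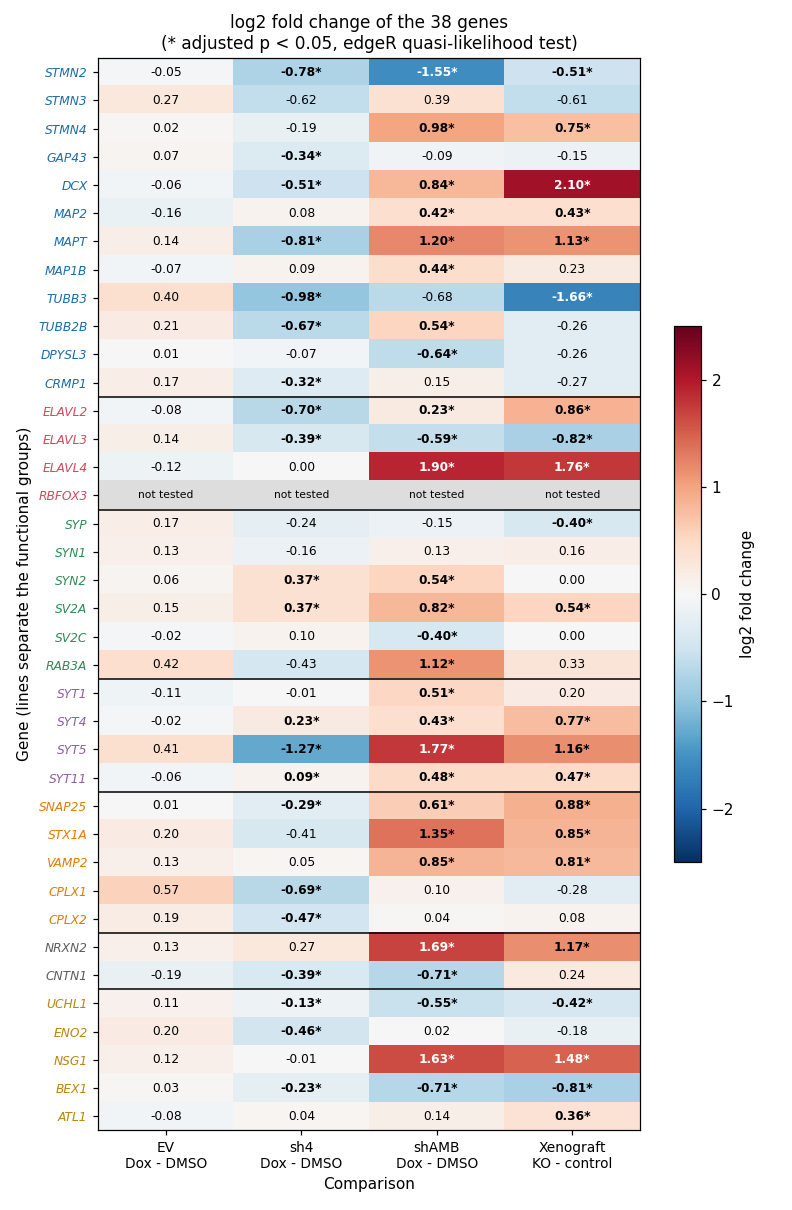
Log2 fold change of each of the 38 genes (rows, in functional groups set apart by lines) in 4 comparisons (columns), from red for higher to blue for lower, with the value printed and a star for adjusted p under 0.05. The EV column has no star, the sh4 column has 17 blue and 4 red stars, and the shAMB and xenograft columns have 20 and 16 red stars.

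The split moved when single libraries were left out and when trends in GC content and gene length were removed together. Per library, log2 counts varied with transcript GC content by a slope of -0.324 to 0.309 per 10 percentage points. In shAMB it ran from -0.324 to -0.161 with DMSO and from 0.0987 to 0.309 with doxycycline, so that group and slope cannot be told apart there. In sh4 with DMSO, replicates 1, 2 and 3 had 0.271, 0.118 and -0.0263. With doxycycline in that line, replicates 1 and 2 had -0.206 and -0.123, and replicate 3 had 0.252. Without that library 28 genes changed in sh4 (5 higher, 23 lower), and without replicate 1 of the same group 14 did (2 higher, 12 lower). With the trends in GC content and gene length removed, an alternative chosen after seeing the data, the shAMB split became 21 higher and 15 lower, and that of sh4 5 and 21. In shAMB this step added 8 genes as lower, STMN3, TUBB3, CRMP1, SYP, SYN1, CPLX1, CPLX2 and ENO2. All 8 had a transcript GC content of 52.3% to 67.1%. The step also added ATL1, with a GC content of 38.2%, as higher in shAMB. The same step made the shAMB rise smaller for STX1A (0.71 in place of 1.35), RAB3A (0.52 in place of 1.12), MAPT (0.71 in place of 1.20), NRXN2 (0.66 in place of 1.69), MAP1B (0.22 in place of 0.44) and SV2A (0.54 in place of 0.82). It made the shAMB rise of ELAVL2 larger (0.40 in place of 0.23), and the shAMB fall larger for ELAVL3 (-1.12 in place of -0.59) and UCHL1 (-1.02 in place of -0.55). In sh4 it took the calls of SYT11, UCHL1, BEX1 and CPLX1 (-0.27, adjusted p = 0.128) and moved CRMP1 to -0.17 and SYT4 to 0.094, both still called, and in the xenografts that of UCHL1 (-0.34, adjusted p = 0.0911). With the length trend alone removed, the split was 19 higher and 10 lower in shAMB and 2 and 15 in sh4, and no fit removed GC content alone. On log2(TPM + 1) the sh4 split was 12 higher and 12 lower, and in the xenografts 8 genes were called, 7 higher and 1 lower. These 8 were DCX, MAPT, ELAVL4, SYT5, SNAP25, NRXN2 and NSG1, all higher, and TUBB3, which was lower. The summed level of the mesenchymal marker list differed between the groups of each hairpin line, while its ranges overlapped in the xenografts. Its 8 genes summed to 233 to 259 CPM with DMSO and 297 to 337 with doxycycline in sh4, and to 220 to 237 and 177 to 197 in shAMB, with 140 to 176 and 132 to 175 in xenografts labelled control and KO. These genes did not move as 1. In sh4 5 were called higher and 1 lower (75% against 40.9% of all genes), in shAMB 3 and 5 (100% against 66%). In the xenografts 1 was called higher and 4 lower (62.5% against 41.1%). The 5 proliferation genes MKI67, TOP2A, CCNB1, CDK1 and AURKB summed to 1870 to 2150 with doxycycline against 2250 to 2430 in sh4, 2070 to 2220 against 2460 to 2580 in shAMB, and 1490 to 2030 against 2020 to 2370 in xenografts. Their part in the results was not tested. The 8 Schwann cell, 5 endothelial and 6 leukocyte markers summed to at most 12.2, 2.33 and 2.67 CPM in any library. The Schwann cell sum was 5.39 to 5.66 with DMSO and 7.03 to 7.98 with doxycycline in sh4, 4.87 to 5.15 and 6.21 to 6.83 in shAMB, and 8 to 12.2 and 4.84 to 7.15 in control and KO xenografts. The endothelial sum was 2.14 to 2.33 and 1.03 to 1.16 in sh4, and 1.58 to 2.06 and 0.822 to 0.831 in shAMB. Their part in the results was not tested either, and the leukocyte genes ITGAM and CD3E had at most 3 counts in each library of every group. In such bulk samples fewer cells of a type and less RNA per cell cannot be told apart.

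**Figure D2:**
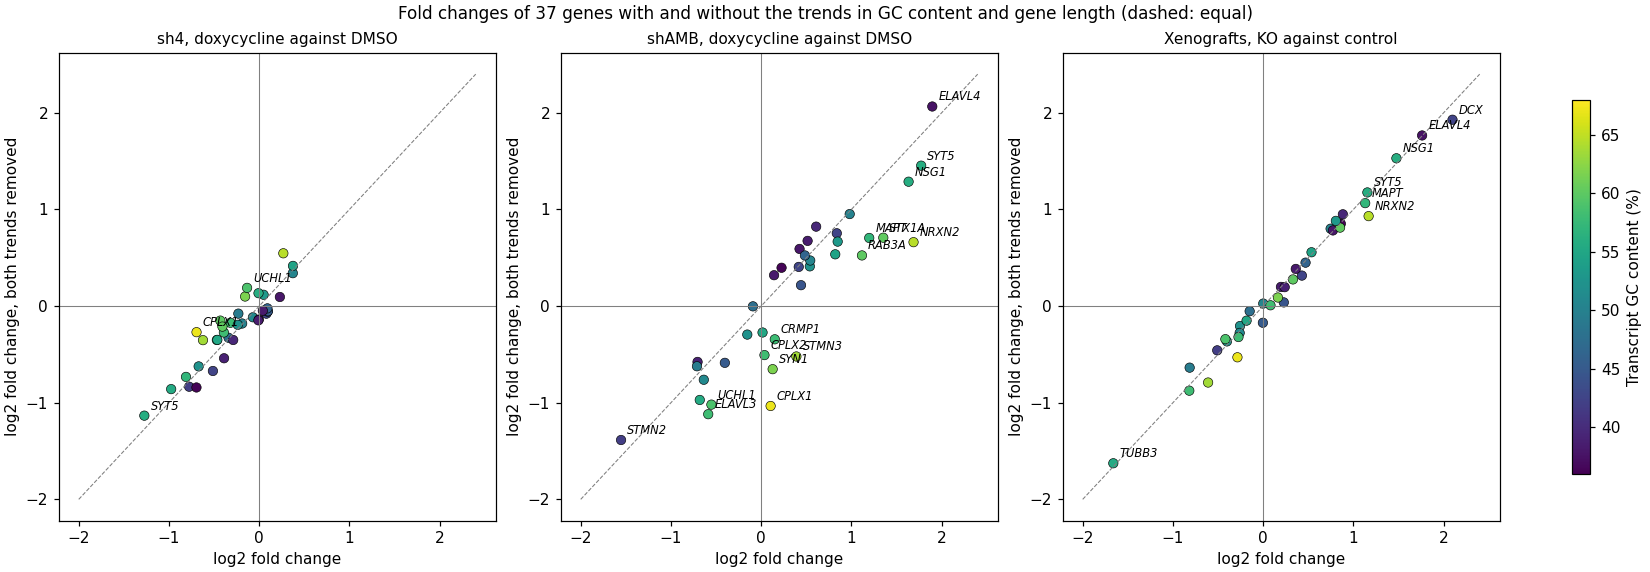
Log2 fold change of 37 genes (x axis) against the same value after the trends in GC content and gene length were removed (y axis), colored by transcript GC content from 36.3% to 67.1%, in sh4, shAMB and the xenografts. Points in the xenograft panel lie near the dashed line of equality, while in shAMB GC-rich genes such as CPLX1 and NRXN2 lie below it.

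Between the lines, 30 of 37 genes had a doxycycline effect that differed between shAMB and sh4, 24 more positive in shAMB and 6 less (81.1%, where 60.9% of all genes differed, 33.1% more positive and 27.8% less). The effect differed from that in EV for 19 genes in sh4, 3 higher and 16 lower (51.4% against 32.6%, of which 17.8% higher and 14.7% lower), and for 25 in shAMB, 17 higher and 8 lower (67.6% against 45.5%, of which 23.7% higher and 21.7% lower). Of the genes called in sh4, SV2A, SYT4 and CNTN1 had no called difference from the effect in EV. Of those called in shAMB, TUBB2B, RAB3A and ELAVL2 had none. These last 2 contrasts share the EV libraries. With GC content and length trends removed, the split was 20 and 10 between shAMB and sh4, and 19 and 15 between shAMB and EV. On log2(TPM + 1) it was 7 and 10 between sh4 and EV. Before induction the lines were closer. With DMSO, 1 gene differed between sh4 and EV (2.7%, where 1.12% of all genes did, 0.597% higher and 0.523% lower) and 2 between shAMB and EV (5.41% against 1.52%, 1.11% higher and 0.416% lower), with the EV libraries in common. DCX was higher in both, by 0.40 (SE 0.0621, adjusted p = 0.00286) and 0.38 (SE 0.0622, adjusted p = 0.00356) on the log2 scale, and SYN2 was lower in shAMB, with a log2 difference of -0.45 (SE 0.0544, adjusted p = 0.000228).

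The 3 comparisons sh4, shAMB and xenografts share no library. By the account of the study and the name of the line, shAMB and the xenografts may share a hairpin sequence. The study does not use the name sh4, so which of its hairpins that line carries is not settled here. Between sh4 and shAMB, 6 genes moved in opposite directions (16.2% of the genes, where 12.5% of all genes did), each lower in sh4 and higher in shAMB, and 9 in the same direction (24.3% against 16%). Of the 6, TUBB2B and ELAVL2 had a shAMB effect with no called difference from that in EV. With GC content and length trends removed, STMN4, MAP2, ELAVL4 and SYT1 were also lower in sh4 and higher in shAMB. Between shAMB and the xenografts, 19 moved in the same direction (51.4% against 33.9%), 15 higher and 4 lower, and none in opposite ones (0.668% of all genes). Between sh4 and the xenografts 8 moved alike (21.6% against 13.5%) and 5 in opposite directions (13.5% against 6.7%). In all 3 comparisons 7 moved one way (18.9% against 11%). Among these 7, SV2A and SYT4 had an sh4 effect with no called difference from that in EV. The xenograft call of each of the 7 was lost with limma on log2(TPM + 1) (adjusted p = 0.1 to 0.584). A further 7 (18.9% against 17.1%) moved alike in shAMB and the xenografts without passing the test in sh4, and all 7 were higher. Across the 37 genes Pearson's r of the log2 fold changes was 0.132 between sh4 and shAMB (Spearman's rho 0.172), 0.784 between shAMB and the xenografts (0.817) and 0.195 between sh4 and the xenografts (0.22). Over all 14670 genes tested in both tables r was 0.0802, 0.743 and 0.219. Genes are not independent replicates, and all points of a comparison come from the same libraries, so no p is given.

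**Figure D3:**
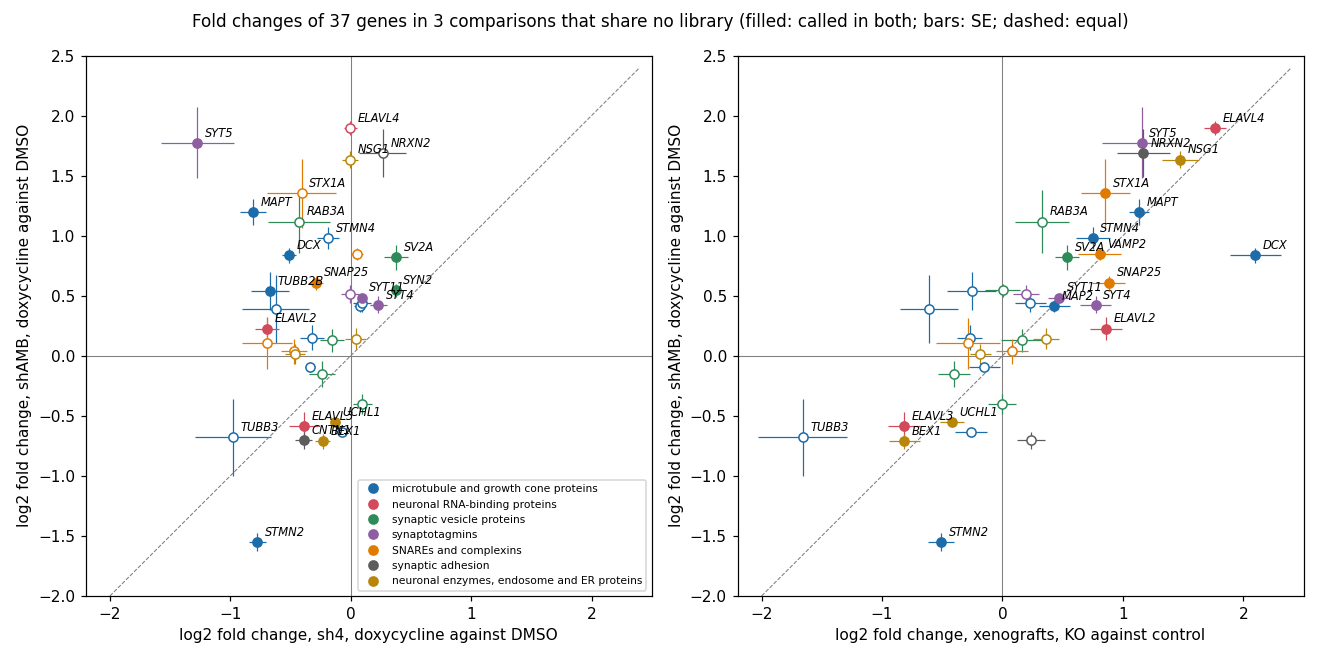
Log2 fold change in shAMB (y axis) against that in sh4 (left) and in the xenografts (right) for 37 genes, with SE bars, one color per functional group, and filled points for genes called in both. The left panel has 6 filled points left of 0 on the x axis and above 0 on the y axis, DCX, MAPT, TUBB2B, ELAVL2, SYT5 and SNAP25, while in the right panel no filled point has effects of opposite sign.

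Among microtubule and growth cone proteins, none of 12 genes rose and 7 fell in sh4 (58.3% called, where 40.9% of all genes were), 6 rose and 2 fell in shAMB (66.7%, at the 66% of all genes), and 4 rose and 2 fell in xenografts labelled KO (50% against 41.1%). STMN2 encodes a stathmin, a protein of growth cones that binds tubulin dimers, and it fell in all 3 comparisons. Its level was 445, 475 and 489 CPM with DMSO and 296, 279 and 247 with doxycycline in sh4. In shAMB it was 479, 501 and 468 with DMSO and 180.3, 165 and 148 with doxycycline. Tumors labelled control had 482, 342, 387 and 427 and those labelled KO 276, 289.6, 297 and 288. Every induced or KO library lay below every library it was compared with, and the 6 EV libraries had 381 to 421. The log2 fold changes were -0.78 (SE 0.0714, adjusted p = 3.72e-07), -1.55 (SE 0.0728, adjusted p = 6.77e-11) and -0.51 (SE 0.107, adjusted p = 0.00333), and the effect in shAMB minus that in sh4 was -0.78 (adjusted p = 9.93e-06).

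The other stathmins took different courses. STMN4, a brain-enriched paralogue, rose in shAMB by 0.98 (SE 0.0926, adjusted p = 1.93e-07) and in xenografts by 0.75 (SE 0.141, adjusted p = 0.00175), with -0.19 in sh4 (adjusted p = 0.116). STMN3 passed the test in none of the 3 comparisons, at -0.62 (SE 0.28), 0.39 (SE 0.282) and -0.61 (SE 0.244). Its transcript GC content is 63.5%, and with GC content and length trends removed it was called lower in all 3, at -0.35 in sh4 (adjusted p = 0.000122), -0.52 in shAMB (1.17e-06) and -0.79 in the xenografts (5.57e-06). STMN2 made up 89.3% ± 1.56 (SD, n = 3) of the summed level per length of the 3 stathmins in shAMB with DMSO and 65.2% ± 4.64 with doxycycline. STMN4 went from 3.32% ± 0.335 to 14% ± 0.316. In the xenografts its share was 1.4% ± 0.0638 in control and 3.32% ± 0.42 in KO (SD, n = 4).

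DCX, which encodes the doublecortin that bundles microtubules in migrating young neurons (chrX:111293779-111412429 in hg38, minus strand), moved in opposite directions in the 2 hairpin lines. In sh4 its level was 80.3, 80.6 and 88 CPM with DMSO and 59.6, 61.4 and 53.5 with doxycycline, a log2 change of -0.51 (SE 0.0621, adjusted p = 7.34e-06). In shAMB 83.1, 84.4 and 77.8 became 149, 142 and 148, a rise of 0.84 (SE 0.0618, adjusted p = 1.2e-08). In neither line did the groups overlap, and EV libraries had 58 to 67.8 CPM, below every DMSO library of both hairpin lines. Xenografts showed the largest rise of any of the genes there, from 46.8, 61.5, 36.6 and 53.5 to 131, 240.3, 228 and 250.2, by 2.10 (SE 0.213, adjusted p = 4.41e-05). KO replicate 1 was the lowest of the KO libraries and lay far above the highest control.

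MAPT encodes tau, the axonal microtubule protein (chr17:45894527-46028334, plus strand). It had 26.7, 25.8 and 23.5 CPM with DMSO and 13.2, 13.1 and 17.1 with doxycycline in sh4. In shAMB it went the other way, from 18.7, 16.4 and 19.6 to 40.1, 42.1 and 43.3, and in xenografts from 28.4, 32.5, 29.4 and 29 to 61.7, 66.6, 69.2 and 63.7. No groups overlapped in these comparisons, and the fold changes were -0.81 (SE 0.112, adjusted p = 2.63e-05), 1.20 (SE 0.111, adjusted p = 1.63e-07) and 1.13 (SE 0.0841, adjusted p = 8.44e-06). The effects of the 2 hairpin lines differed by 2.01 (adjusted p = 4.48e-08). EV libraries had 19 to 24.3 CPM.

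TUBB2B, a neuronal beta-tubulin (chr6:3223324-3231730, minus strand), had 169, 145 and 122 CPM with DMSO and 75.6, 80.1 and 119 with doxycycline in sh4, and 101, 90.9 and 107 with DMSO and 127, 151 and 158 with doxycycline in shAMB. The groups did not overlap within either line, although sh4 replicate 3 with doxycycline came close to the lowest DMSO library. The log2 fold changes were -0.67 (SE 0.16, adjusted p = 0.00319) and 0.54 (SE 0.16, adjusted p = 0.00761), while the xenografts, at 89.6, 115, 145 and 135 in control and 140.3, 90.2, 105 and 70.2 in KO, overlapped and did not pass the test (-0.26, adjusted p = 0.342). Its reads can be shared with the near-identical TUBB2A, so its value is uncertain.

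TUBB3, the beta-tubulin used as a marker of neurons, fell in sh4 and in the xenografts. In sh4 its level was 127, 91 and 67 CPM with DMSO and 29.8, 35.6 and 79.9 with doxycycline, and the groups overlapped at replicate 3. In shAMB it had 44.1, 34.9 and 48.9 with DMSO and 20.9, 26.8 and 32.1 with doxycycline, which did not overlap, but the difference missed the threshold. Xenograft levels were 66.7, 117, 167 and 142 in control and 66.5, 32.1, 39.8 and 17.6 in KO, with the highest KO library just under the lowest control. The fold changes were -0.98 (SE 0.317, adjusted p = 0.0218), -0.68 (SE 0.323, adjusted p = 0.0748) and -1.66 (SE 0.368, adjusted p = 0.00436). The call in sh4 was lost without sh4 DMSO replicate 1 (adjusted p = 0.0984), doxycycline replicate 1 (0.0972) or doxycycline replicate 2 (0.0994), and 21.3% of the exonic bases of TUBB3 lie in a gene that overlaps it on the same strand. The transcript has a GC content of 55.4%. After removal of the GC content and length trends, TUBB3 was called lower in shAMB too (-0.97, adjusted p = 0.00105).

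Of the other growth cone genes, GAP43, a membrane protein of growing axons, fell in sh4 with a log2 fold change of -0.34 (SE 0.0413) and had -0.091 (SE 0.0412) in shAMB and -0.15 (SE 0.131) in the xenografts, neither called. MAP2, the microtubule protein of dendrites, rose by 0.42 (SE 0.0495) in shAMB and by 0.43 (SE 0.129) in the xenografts, where its call was lost without any of 5 single libraries, control replicate 3 or 4 or KO replicate 2, 3 or 4 (adjusted p = 0.0517 to 0.0704). MAP1B, a related protein of growing axons, rose in shAMB alone among the 3 comparisons, by 0.44 (SE 0.0757). DPYSL3, a collapsin response mediator protein of the growth cone, fell in shAMB with a log2 fold change of -0.64 (SE 0.0367), and its relative CRMP1 fell in sh4 with one of -0.32 (SE 0.101), a call lost without sh4 DMSO replicate 1 (adjusted p = 0.0703) or doxycycline replicate 1 (0.0878) or 2 (0.0867). After removal of the GC content and length trends, CRMP1 was also called lower in shAMB (-0.34, adjusted p = 7.91e-07) and the xenografts (-0.32, adjusted p = 0.00344).

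**Figure D4:**
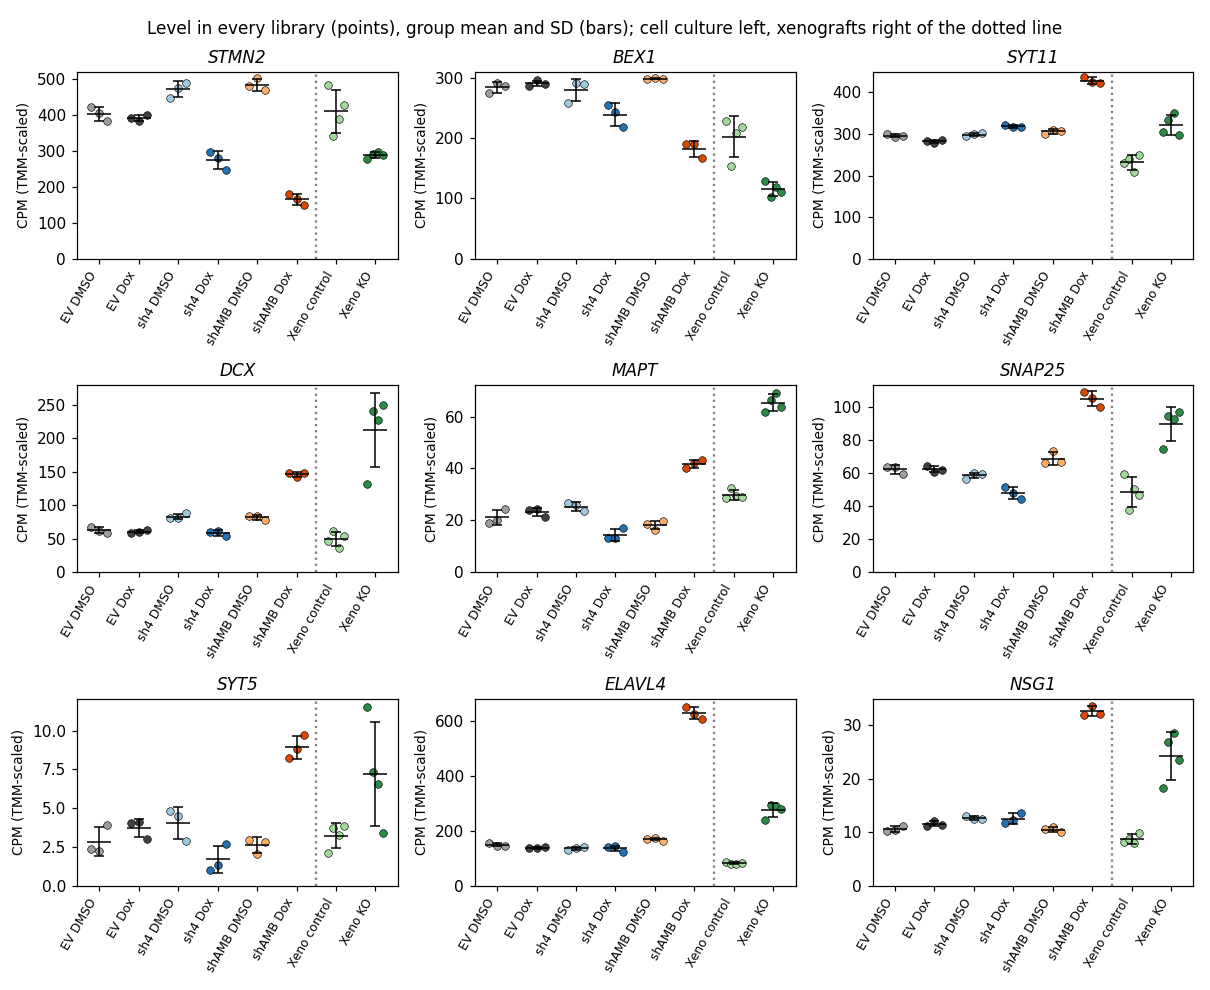
Level in every library (points, CPM scaled by TMM, axes from 0) of 9 genes in the 8 groups, with the group mean and SD; cell culture lies left and xenografts right of the dotted line. STMN2 and BEX1 fall and SYT11 rises in each induced or KO group, DCX, MAPT, SNAP25 and SYT5 fall in sh4 and rise in shAMB, and ELAVL4 and NSG1 rise in shAMB and the KO group while both sh4 groups lie together.

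Among the neuronal RNA-binding proteins the 3 ELAVL genes diverged. These proteins bind AU-rich messages in neurons and stabilise them. ELAVL4, also called HuD, had 170.5, 172 and 164 CPM with DMSO and 653, 627 and 609 with doxycycline in shAMB, a rise of 1.90 (SE 0.0544, adjusted p = 2.61e-13) or 3.72-fold. In the xenografts it went from 86.4, 79.4, 77.6 and 81.6 to 238, 296, 289 and 279.9, a rise of 1.76 (SE 0.0915, adjusted p = 2.61e-06). In sh4 it had 130.1, 137 and 142 with DMSO and 141, 143 and 124 with doxycycline, with a difference of -0.0045 and a 95% interval of -0.12 to 0.11. The effects of shAMB and sh4 differed by 1.90 (adjusted p = 2.65e-11).

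ELAVL3 moved the other way. It had 77, 69 and 78.7 CPM with DMSO and 46.1, 48.2 and 55.3 with doxycycline in shAMB, and 33.2, 43.9, 34.6 and 43.3 in control and 26.2, 20.3, 21.4 and 20 in KO xenografts, without overlap. In sh4, 109, 95.6 and 86.4 with DMSO and 64.1, 69.4 and 88.7 with doxycycline overlapped. It fell in all 3, with log2 fold changes of -0.39 (SE 0.118, adjusted p = 0.0148), -0.59 (SE 0.12, adjusted p = 0.000486) and -0.82 (SE 0.131, adjusted p = 0.000658). The call in sh4 was lost without sh4 DMSO replicate 1 (adjusted p = 0.0574) or doxycycline replicate 1 (0.0755) or 2 (0.0627).

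ELAVL2 (chr9:23690104-23826337, minus strand) fell in sh4, from 85.3, 97.9 and 100.5 CPM to 64.6, 61.1 and 49.4, a log2 change of -0.70 (SE 0.0964, adjusted p = 2.86e-05). In the xenografts it rose from 76.9, 58.7, 67 and 68.2 to 91.7, 130.2, 132 and 138, by 0.86 (SE 0.133, adjusted p = 0.000538). In shAMB, 109, 122 and 105 with DMSO and 140.5, 133 and 120.1 with doxycycline overlapped, and the rise of 0.23 (SE 0.0951, adjusted p = 0.047) was lost in DESeq2 (adjusted p = 0.221) and without DMSO replicate 1 (0.127) or 3 (0.162) or doxycycline replicate 1 (0.169) or 2 (0.103), so that its place among the 6 genes of opposite direction rests on a weak call. Per length, ELAVL4 made up 48.4% ± 0.39 of the 3 ELAVL genes in shAMB with DMSO and 77.9% ± 0.101 with doxycycline (SD, n = 3). In the xenografts its share was 44% ± 0.676 and 65.3% ± 1.45 (SD, n = 4), while ELAVL3 went from 17.8% ± 2.88 to 4.48% ± 1.16.

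**Figure D5:**
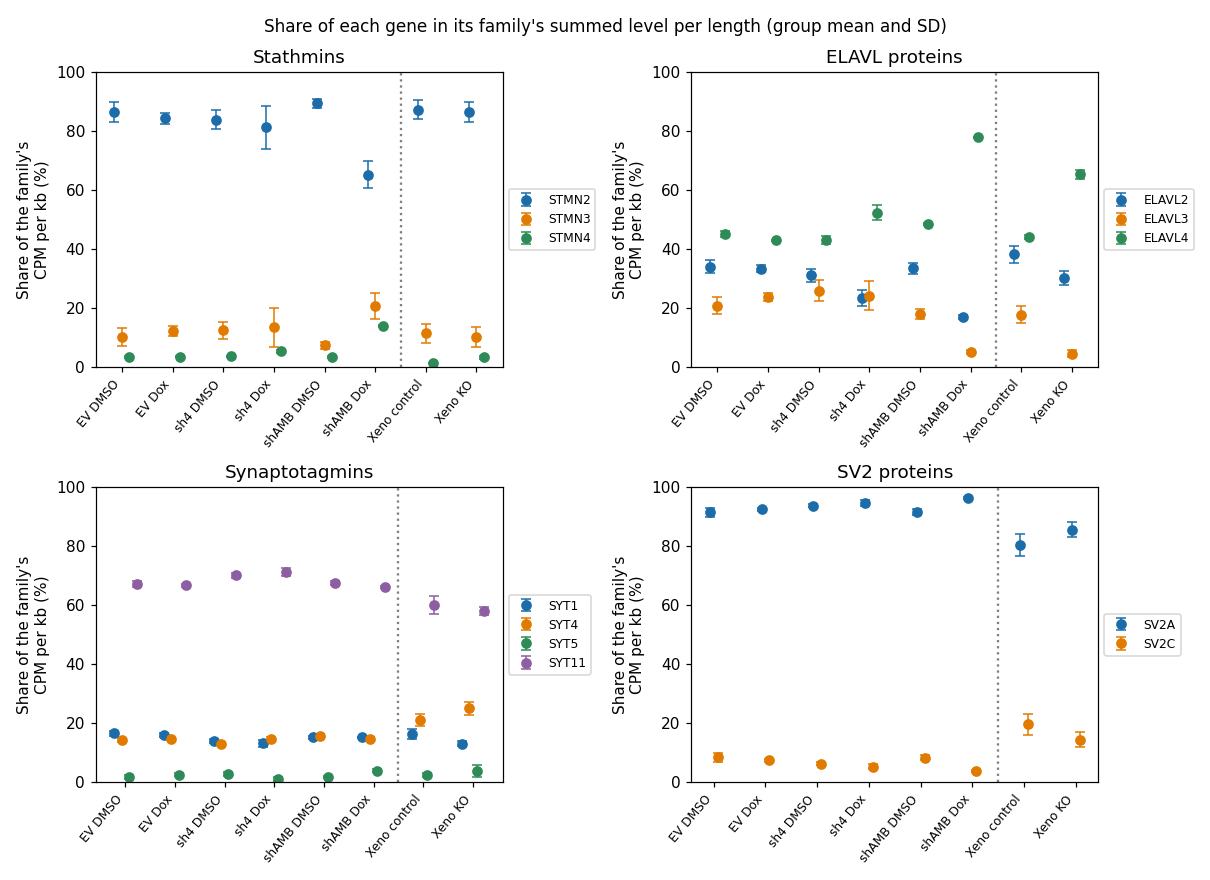
Share (%) of each gene in the summed CPM per kilobase of its family, as group mean and SD, in the 8 groups. ELAVL4 takes 77.9% of the ELAVL level in shAMB with doxycycline and 65.3% in KO xenografts, and SYT11 takes 58.1% to 71.1% of the synaptotagmin level in every group.

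Of the 6 proteins of the vesicle itself, 2 rose and none fell in sh4 (33.3%, under the 40.9% of all genes), 3 rose and 1 fell in shAMB (66.7% against 66%), and in the xenografts 1 rose and 1 fell (33.3% against 41.1%). SV2A, a vesicle glycoprotein with a transporter fold, had 156, 151 and 137 CPM with DMSO and 166, 188 and 222 with doxycycline in sh4. In shAMB it had 123, 107 and 130.1 with DMSO and 202, 215 and 219.8 with doxycycline, and in xenografts 85.6, 97.9, 96.2 and 109 in control and 140.3, 147, 156 and 121 in KO. It rose in all 3 without overlap, by 0.37 (SE 0.102, adjusted p = 0.008), 0.82 (SE 0.103, adjusted p = 4.42e-06) and 0.54 (SE 0.102, adjusted p = 0.00184). EV libraries spread over 111 to 144 CPM, with a log2 change of 0.15 that was not called. The SV2A effect in sh4 had no called difference from that in EV.

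SV2C, its paralogue, fell in shAMB with a log2 fold change of -0.40 (SE 0.0799), and SV2A went from 91.6% ± 0.89 of their summed level per length with DMSO to 96.2% ± 0.297 with doxycycline (SD, n = 3). SYN2, a synapsin that tethers vesicles to actin, rose by 0.37 (SE 0.0536) in sh4 and 0.54 (SE 0.0541) in shAMB and had 0.0011 (SE 0.148) in the xenografts. SYN1 was called in none of the 3 unless GC content and length trends were removed, and 24.9% of its exonic bases overlap another gene on the same strand. RAB3A, the small GTPase that docks vesicles, rose in shAMB by 1.12 (SE 0.261) from 1.66 to 2.3 CPM with DMSO to 3.74 to 4.67 with doxycycline. SYP, synaptophysin, a common marker of vesicles, fell in the xenografts with a log2 change of -0.40 (SE 0.134, adjusted p = 0.0331) and was not called in culture. That call was lost without control replicate 2 (adjusted p = 0.0589), 3 (0.0628) or 4 (0.0948) or KO replicate 2 (0.0858) or 4 (0.0549). After removal of the GC content and length trends, SYP was called lower in sh4 (-0.19, adjusted p = 0.0146) and shAMB (-0.29, adjusted p = 0.000553) as well.

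All 4 synaptotagmins rose in shAMB, by 0.43 to 1.77 on the log2 scale (100% called, where 66% of all genes were). In the xenografts 3 rose and none fell (75% against 41.1%), and in sh4 2 rose and 1 fell (75% against 40.9%). SYT5 (chr19:55171196-55180289, minus strand) had the largest difference between the 2 hairpin lines of the 37 genes. In sh4 it had 4.79, 4.46 and 2.86 CPM with DMSO and 1.04, 1.32 and 2.7 with doxycycline. In shAMB it had 2.96, 2.03 and 2.83 with DMSO and 8.24, 8.81 and 9.72 with doxycycline, and neither pair overlapped. Xenografts had 2.09, 3.7, 3.26 and 3.86 in control and 11.5, 7.32, 6.56 and 3.42 in KO, where KO replicate 4 lay within the control range. The fold changes were -1.27 (SE 0.304, adjusted p = 0.00329), 1.77 (SE 0.294, adjusted p = 7.57e-05) and 1.16 (SE 0.328, adjusted p = 0.016), and shAMB and sh4 differed by 3.05 (adjusted p = 1.96e-05).

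SYT4 and SYT11 encode synaptotagmins that do not bind calcium in the usual way. SYT11 was the most abundant of the 4 per length, with 67.1% ± 1 of their sum in EV with DMSO (SD, n = 3). Its level was 295, 299 and 302 CPM with DMSO and 322, 317 and 316 with doxycycline in sh4. In shAMB it was 299.9, 311 and 308 with DMSO and 438, 424 and 424 with doxycycline, and in xenografts 229.9, 240.1, 208 and 250.3 in control and 305, 333, 351 and 297 in KO. No groups overlapped, and the rises were 0.091 (SE 0.0301, adjusted p = 0.0237), 0.48 (SE 0.0302, adjusted p = 1.68e-09) and 0.47 (SE 0.0916, adjusted p = 0.00209). The rise in sh4 is small: it became -0.024 with GC content and length trends removed and lost its call without DMSO replicate 1 (adjusted p = 0.206) or 2 (0.0624) or doxycycline replicate 1 (0.0809) or 2 (0.0538).

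SYT4 had 40.2, 44.9 and 44.3 CPM with DMSO and 52.5, 53.5 and 45.7 with doxycycline in sh4. The shAMB line had 53.2, 58.7 and 52.8 with DMSO and 78.8, 72.2 and 70.2 with doxycycline, and in xenografts 74.4, 55.2, 60 and 63.2 in control and 86.6, 122, 121 and 103 in KO. The groups did not overlap in any comparison, and the rises were 0.23 (SE 0.0735, adjusted p = 0.0204), 0.43 (SE 0.0731, adjusted p = 0.000107) and 0.77 (SE 0.128, adjusted p = 0.000811). In sh4 the call was lost without DMSO replicate 1 (adjusted p = 0.148) or doxycycline replicate 1 (0.0748) or 2 (0.0973). The SYT4 effect in that line had no called difference from that in EV. SYT1, the main calcium sensor of fast release, rose in shAMB by 0.51 (SE 0.075) and had -0.0087 (SE 0.0753) in sh4 and 0.20 (SE 0.107) in the xenografts.

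Of the SNARE and complexin genes, none of 5 rose and 3 fell in sh4, while 3 rose and none fell in both shAMB and the xenografts. The share called was 60% each time, above the 40.9% and 41.1% of all genes in sh4 and the xenografts and below the 66% in shAMB. SNAP25, the SNARE of the plasma membrane that contributes a pair of helices (chr20:10172395-10308258, plus strand), had 56.6, 59.7 and 59.4 CPM with DMSO and 51.5, 47.9 and 44.5 with doxycycline in sh4. The shAMB line had 66.2, 73.6 and 66.7 with DMSO and 109, 105 and 100.2 with doxycycline, and in xenografts 59.5, 37.8, 50.4 and 46.7 in control and 74.7, 94.6, 92.7 and 96.7 in KO. The groups did not overlap in any of these, and the changes were -0.29 (SE 0.0586, adjusted p = 0.000957), 0.61 (SE 0.0582, adjusted p = 2.22e-07) and 0.88 (SE 0.137, adjusted p = 0.00054). The fall in sh4 was not called on log2(TPM + 1) or with the gene length trend removed.

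Its partners in the fusion complex rose with it in shAMB and the xenografts. VAMP2, the SNARE of the vesicle, rose by 0.85 (SE 0.0496, adjusted p = 8.38e-10) and 0.81 (SE 0.177, adjusted p = 0.00412), with 0.049 in sh4 (95% interval -0.056 to 0.15), and 11.9% of its exonic bases overlap another gene on the same strand. STX1A, the syntaxin of the plasma membrane, rose by 1.35 (SE 0.289, adjusted p = 0.000713) and 0.85 (SE 0.203, adjusted p = 0.00659). In sh4 STX1A had a wide interval of -1.01 to 0.20 around -0.41. The complexins fell in sh4, with log2 fold changes of -0.69 (SE 0.208) for CPLX1 and -0.47 (SE 0.107) for CPLX2, and neither was called in shAMB (0.10 and 0.037) or the xenografts (-0.28 and 0.081). The CPLX1 call was lost without sh4 DMSO replicate 1 (adjusted p = 0.0688) or doxycycline replicate 1 (0.0687). With GC content and length trends removed, CPLX1 was -1.03 (adjusted p = 1.05e-05) and CPLX2 -0.51 (adjusted p = 2.67e-08) in shAMB, both called lower. CPLX2 made up 94.6% ± 0.301 of the 2 complexins per length in EV with DMSO (SD, n = 3).

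NRXN2 encodes a neurexin, the presynaptic receptor that binds neuroligins across the cleft. It had 14.2, 11.5 and 12.5 CPM with DMSO and 35, 40 and 48.3 with doxycycline in shAMB, and 12.9, 21.3, 19.7 and 19.6 in control and 55.1, 41.1, 43.2 and 25.8 in KO xenografts. It rose without overlap by 1.69 (SE 0.201, adjusted p = 2.48e-06) and 1.17 (SE 0.22, adjusted p = 0.00171). In sh4, 22.9, 18.5 and 15.6 with DMSO and 17.5, 20.4 and 30.8 with doxycycline overlapped (0.27, adjusted p = 0.291). With GC content and length trends removed the rise was 0.66 in shAMB and 0.93 in the xenografts. NRXN2 was then also called higher in sh4, by 0.55 (adjusted p = 2.8e-06). The effects of shAMB and sh4 did not differ in that fit (0.12, adjusted p = 0.31). CNTN1, the adhesion molecule contactin, fell with log2 fold changes of -0.39 (SE 0.0702) in sh4 and -0.71 (SE 0.0705) in shAMB and had 0.24 (SE 0.114) in the xenografts, not called.

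Among the neuronal enzymes and the endosome and ER proteins, NSG1, a protein of neuronal endosomes, rose in shAMB from 10.5, 11 and 9.95 CPM to 31.9, 33.6 and 32.1 and in the xenografts from 8.13, 8.78, 8.02 and 9.92 to 18.3, 26.9, 28.5 and 23.4. The rises were 1.63 (SE 0.0692, adjusted p = 2.09e-11) and 1.48 (SE 0.153, adjusted p = 5.02e-05), with no overlap. In sh4 it had 13, 12.4 and 12.4 with DMSO and 11.7, 12.3 and 13.6 with doxycycline, a difference of -0.0074 with a 95% interval of -0.15 to 0.14. The effects of the 2 hairpin lines differed by 1.64 (adjusted p = 2.1e-09).

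UCHL1 and BEX1, the genes with the highest level per length in EV with DMSO and in control xenografts, fell in all 3 comparisons. UCHL1, a ubiquitin hydrolase that makes up a large share of neuronal protein, had 613, 608 and 569 CPM with DMSO and 527, 537 and 567 with doxycycline in sh4. In shAMB it had 538, 538 and 555 with DMSO and 368, 380.5 and 364 with doxycycline, and in xenografts 429, 347, 454 and 399.6 in control and 311, 298, 327 and 283 in KO. No groups overlapped, although in sh4 the gap was narrow, and the log2 fold changes were -0.13 (SE 0.0422, adjusted p = 0.0186), -0.55 (SE 0.0424, adjusted p = 1.9e-08) and -0.42 (SE 0.1, adjusted p = 0.00671). The sh4 call was lost without DMSO replicate 2 (adjusted p = 0.0686) or doxycycline replicate 1 (0.0789) or 2 (0.0638) and turned to 0.040 on log2(TPM + 1). The xenograft call was lost on log2(TPM + 1) as well (-0.37, adjusted p = 0.584) and with GC content and length trends removed (-0.34, adjusted p = 0.0911).

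BEX1, an X-linked gene induced in differentiating neural cells, had 259, 292 and 290.2 CPM with DMSO and 255, 244 and 218 with doxycycline in sh4. In shAMB it had 299, 300.4 and 298 with DMSO and 190.3, 190.3 and 167 with doxycycline, and in xenografts 229, 154, 209 and 219 in control and 128, 102, 119.7 and 111 in KO. It fell without overlap, with log2 fold changes of -0.23 (SE 0.0619, adjusted p = 0.00714), -0.71 (SE 0.0622, adjusted p = 8.14e-08) and -0.81 (SE 0.127, adjusted p = 0.000562), and the sh4 call was lost on log2(TPM + 1) (-0.058, adjusted p = 0.428), with the length trend removed (-0.034, adjusted p = 0.789) and with GC content and length trends removed (-0.078, adjusted p = 0.281). The xenograft call was also lost on log2(TPM + 1) (-0.75, adjusted p = 0.131). In addition, reads shared with the close copy BEX2 make the value of BEX1 uncertain. ENO2, the neuronal enolase, fell in sh4 with a log2 fold change of -0.46 (SE 0.0806) and had 0.015 (SE 0.0805) in shAMB. After removal of the GC content and length trends, ENO2 was called lower in shAMB (-0.27, adjusted p = 2.15e-07). ATL1, atlastin, which shapes the ER of axons, rose in the xenografts, by 0.36 (SE 0.109, adjusted p = 0.0216), a call lost without control replicate 2 (adjusted p = 0.0551), 3 (0.0678) or 4 (0.0644). It was not called in sh4 or shAMB, but after removal of the GC content and length trends it was called higher in shAMB (0.32, adjusted p = 1.32e-06).

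In EV with DMSO, the level per length of the 37 tested genes ran from UCHL1 (487 ± 19.5 CPM per kb, SD, n = 3) and BEX1 (330.1 ± 10.1) through STMN2 (181 ± 9.07) to RAB3A (1.4 ± 0.26). ENO2 (124 ± 12) and GAP43 (119 ± 3.12) followed STMN2 and did not differ beyond their spread. In xenografts labelled control, in a table that was normalized separately, the order again began with UCHL1 (362 ± 40.9 CPM per kb, SD, n = 4), BEX1 (235 ± 38.8) and STMN2 (184 ± 26.8), and BEX1 and STMN2 there lay apart by less than the sum of their SDs. At the low end SYT5 (1.55 ± 0.513) and RAB3A in EV with DMSO lay within each other's spread.

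Genes of the same pathways that were not among the 38 were counted from lists written with earlier results of these data known. Beside each list stands the share of its tested genes that was called, to be read against the share of all genes (sh4 40.9%, shAMB 66%, xenografts 41.1%). Of 26 genes of the release machinery and active zone, 3 rose and 4 fell in sh4 (26.9%, under the background), 19 rose and 3 fell in shAMB (84.6%), and 13 rose and none fell in the xenografts (50%). SNPH, which anchors mitochondria in axons, was at 2.30 in shAMB and 1.96 in the xenografts, and the active zone scaffold gene RIMS1 at 1.93 and 0.98. Of the vesicle membrane, trafficking and recycling genes 7 rose and 2 fell in sh4 (39.1% of 23, near the background), 16 rose and 3 fell in shAMB (82.6% of 23), and 15 rose and 1 fell in the xenografts (64% of 25). SLC18A3, the vesicular acetylcholine transporter, rose by 2.64 and 1.20 in shAMB and the xenografts, SH3GL2 by 1.65 and 2.12, and SLC17A7, a vesicular glutamate transporter, by 1.64 and 1.97. The cytoskeleton and growth cone list was mixed, with 2 up and 6 down in sh4 (34.8% of 23), 12 up and 7 down in shAMB (82.6% of 23), and 7 up and 8 down in the xenografts (68.2% of 22). STMN1, the stathmin of dividing cells, fell with log2 fold changes of -2.49 in shAMB and -2.11 in the xenografts. In the same 2 comparisons L1CAM rose by 1.93 and 1.10 and KIF5A by 1.39 and 1.30.

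Of 13 other RNA-binding proteins 3 rose and 2 fell in sh4 (38.5%, near the background), 9 rose and 2 fell in shAMB (84.6%), and 7 rose and 1 fell in the xenografts (61.5%), among them PTBP2, the neuronal splicing repressor, by 1.82 and 2.07. Of 17 synaptic adhesion genes 8 rose and 1 fell in sh4 (52.9%), 6 rose and 6 fell in shAMB (70.6%), and 5 rose and 3 fell in the xenografts (47.1%), the last 2 shares being near the background. CNTN2 rose by 1.18 in shAMB and 1.45 in the xenografts. CNTNAP2, a partner of contactins, fell in these with log2 fold changes of -1.26 and -0.95 but was called higher in sh4 (0.17). Of 9 close paralogues tested, 1 rose and 3 fell in sh4 (44.4%), 5 rose and 3 fell in shAMB (88.9%), and 3 rose and none fell in the xenografts (33.3%), with CPLX3 at 2.90 and 2.53 and ENO3 at 2.68 and 2.38 in shAMB and the xenografts. In EV edgeR called none of the genes of these lists, and at most 4 genes of any list had an unadjusted p under 0.05.

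NEUROD1, a helix-loop-helix factor of neuronal differentiation, rose by 1.17 in shAMB and 1.59 in the xenografts and had 0.018 in sh4, not called. REST, the repressor of neuronal genes, had 17.3 to 20.1 CPM with DMSO and 36 to 42.7 with doxycycline in sh4, 17.5 to 19.1 and 24.3 to 26.9 in shAMB, and 3.39 to 4.55 and 4.22 to 7.09 in control and KO xenografts. It rose by 1.14 (SE 0.0823, adjusted p = 2.44e-08), 0.49 (SE 0.0823, adjusted p = 8.81e-05) and 0.54 (SE 0.195, adjusted p = 0.0472), with overlapping groups in the xenografts, and more in sh4 than in shAMB (shAMB minus sh4 -0.65, adjusted p = 0.000199). MYCN rose as well, by 0.68, 1.57 and 1.46, from a level of 2138 to 2298 CPM in EV with DMSO. A part of either gene in the changes of the 38 genes was not tested.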

How the data were processed

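RNA was sequenced from 18 KELLY libraries in culture and 8 KELLY xenograft libraries. The submitters' processing notes name STAR, SAMtools, RSEM and hg38, without versions. The authors deposited, per gene, RSEM expected counts and TPM. The sources used here do not settle whether polyA or total RNA was sequenced, nor the strand of counting. Each table was analysed separately.

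The expected counts as deposited were rounded, genes with low counts were removed with filterByExpr (14905 genes kept in culture, 15960 in xenografts), and edgeR 4.0.16 (R 4.3.3) was fitted with TMM factors and the quasi-likelihood test over all groups of a table. P-values were adjusted by the Benjamini-Hochberg method over all genes tested, with a threshold of 0.05. The effect of a line was doxycycline minus DMSO, and differences between lines were interaction terms. CPM are counts divided by library size after TMM scaling, and CPM per kb are divided by the deposited gene length. No molecular identifiers are named, so that limits from counts cover counting error only. The fit was tested on simulated data.

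The 38 genes and all other lists were chosen with earlier results of these data known. Values in every library are given for genes called in opposite directions in sh4 and shAMB, called alike in both and the xenografts, or among the 5 largest called changes of each comparison. At most 3 genes outside the 38 were named per list. They were drawn from the 3 with the largest mean absolute change among genes called alike in shAMB and the xenografts, and not all 3 were named for every list. RUNX1T1, MYCN and REST were named as context. One gene of the marker and regulator lists, and the counts and sums that need it, are not reported here.

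Alternatives were RLE factors, no filter on low counts, DESeq2 1.42.0, limma 3.58.1 on log2(TPM + 1) from the deposited TPM, removal of the trend in gene length, the replicate number as a block, and each library left out. Removal of trends in both GC content and gene length was chosen after seeing the data, and GC content was known for 38 of the 38 genes. Coordinates and exon overlaps came from the GENCODE annotation of hg38.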

Additional observations from a re-analysis of the deposited data

Results flagged for a closer look

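In 3 of 76 groups of 4 xenograft libraries, 1 library stood far from the other three by Dixon's test, which chance does for about 1 group in 20. STMN3 had 38.8 CPM in control replicate 1 and 62.8 to 64.9 in the other control libraries. RBFOX3 had 0.0623 CPM in KO replicate 3 and 0.209 to 0.229 in the other KO libraries, all from 13 counts or fewer. ENO2 had 198 CPM in KO replicate 1 and 168 to 172 in the other KO libraries.

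Groups with the same contrast differed by interaction tests, for 19 genes between sh4 and EV, 25 between shAMB and EV, and 30 between shAMB and sh4. The log2 effect in shAMB minus that in sh4 was 3.05 for SYT5, 2.01 for MAPT, 1.90 for ELAVL4, 1.76 for STX1A, 1.64 for NSG1, 1.55 for RAB3A, 1.42 for NRXN2, 1.35 for DCX, 1.21 for TUBB2B, 1.17 for STMN4 and 1.01 for STMN3. It was 0.92 for ELAVL2, 0.90 for SNAP25, 0.80 for CPLX1, 0.80 for VAMP2, 0.52 for SYT1, 0.51 for CPLX2, 0.48 for ENO2, 0.47 for CRMP1, 0.45 for SV2A, 0.39 for SYT11, 0.35 for MAP1B, 0.34 for MAP2 and 0.25 for GAP43. Below 0 were STMN2 at -0.78, DPYSL3 at -0.57, SV2C at -0.50, BEX1 at -0.48, UCHL1 at -0.42 and CNTN1 at -0.32. With GC content and length trends removed, the difference was no longer called for NRXN2 (0.12, adjusted p = 0.31), ENO2 (0.076, adjusted p = 0.113), CNTN1 (-0.038, adjusted p = 0.317) and STMN3 (-0.17, adjusted p = 0.104). It turned to a called negative value for CPLX1 (-0.76, adjusted p = 0.00423), CRMP1 (-0.17, adjusted p = 0.0146) and CPLX2 (-0.16, adjusted p = 0.0432). With the length trend alone removed, the difference was not called for GAP43 (0.034, adjusted p = 0.728). The call for STMN3 was lost without sh4 DMSO replicate 1 or 2, sh4 doxycycline replicate 1 or 2, shAMB DMSO replicate 1 or 2, or shAMB doxycycline replicate 2 or 3 (edgeR adjusted p = 0.0563 to 0.0951). That for CPLX1 was lost without sh4 DMSO replicate 1, sh4 doxycycline replicate 1 or 2, shAMB DMSO replicate 2 or 3, or shAMB doxycycline replicate 3 (0.0503 to 0.0906).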

How the results depend on the processing

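Of 147 called values of the 38 genes over all comparisons, 146 kept direction and call with DESeq2, 143 with RLE factors, 141 without the filter on low counts, 134 with the gene length trend removed, 129 with GC content and length trends removed and 119 on log2(TPM + 1). On log2(TPM + 1) the xenograft count fell to 8 (7 higher, 1 lower). For sh4 against EV with DMSO, where 1 gene differed, 5 did with DESeq2, 2 on log2(TPM + 1), 4 with the length trend removed and 9 with GC content and length trends removed, and for shAMB against EV 8 did with both trends removed. With GC content and length trends removed, SYT11 in sh4 turned to -0.024, UCHL1 to 0.19 in sh4 and 0.33 in sh4 against EV, and, between shAMB and sh4, STMN3 to -0.17, CRMP1 to -0.17, CPLX1 to -0.76 and CPLX2 to -0.16. UCHL1 in sh4 turned to 0.040 on log2(TPM + 1) and 0.015 with the length trend removed, BEX1 in sh4 against EV to 0.028 with the length trend removed, and GAP43 in shAMB against EV to 0.065 on log2(TPM + 1). The cause was not tested. The scaling moved the median of all genes by 0.125 in sh4 and 0.11 in shAMB on log2(TPM + 1), and by -0.11 in shAMB with the length trend removed.

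Leaving out each library in turn gave 0 to 0 called genes in EV, 14 to 28 in sh4, 26 to 27 in shAMB and 20 to 26 in the xenografts. For the effects against EV the counts were 15 to 25 in sh4 and 23 to 25 in shAMB, and 28 to 32 between shAMB and sh4. With DMSO they were 1 to 2 for sh4 against EV, the 2 being without EV DMSO replicate 3, and 2 to 2 for shAMB. With the replicate number as a block, 30 of the 147 calls were lost and none reversed. The block gave 14 genes in sh4 (2 higher, 12 lower), 26 in shAMB, 18 in the xenografts and 9 for sh4 against EV (0 higher, 9 lower). Deviations of same-numbered libraries correlated at -0.603 to 0.374, so the numbers were not taken as pairs, and no sh4 pair correlated above 0. Depth limits RBFOX3, SYT5, RAB3A and CPLX1 most, and 3 or 4 libraries a group limit every test.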
